A study of Mus musculus with 12 samples.

Results

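The carboxylesterases Ces1c, Ces1d, Ces1e, Ces1f, Ces1g, Ces2a, Ces2c, Ces2e, Ces3a and Ces3b were followed in mouse liver after loss of Gdown1. They were taken by name as the genes of carboxylesterase families 1, 2 and 3 to be described, and they make up 10 of the 23420 genes counted and 10 of the 19 genes that carry a Ces symbol. Gdown1, the product of Polr2m, is a protein that associates with RNA polymerase II. Every mouse was C57BL/6 and carried floxed Gdown1 alleles (Gdown1 flox/flox), and RNA came from whole liver, with 2 libraries in each of 6 groups. At 7 weeks of age the groups were FF, with the floxed alleles and no Cre, and KO, with the same alleles and Alb-Cre, in which the albumin promoter drives Cre in hepatocytes. At 8 weeks the groups were p53KO, floxed and p53-/-, and DKO, floxed, p53-/- and Alb-Cre. The acute pair, p53KO TAM and DKO TAM, was sampled 24 h after tamoxifen. Mice of the DKO TAM group carried the tamoxifen-inducible Alb-CreERT2 and a p53 null mutation, and those of the p53KO TAM group were floxed and p53-/- and carried no CreERT2 according to their labels. The age of the tamoxifen-treated mice and the sex of all mice are not given in the labels. Because no control group carried Cre, the presence of Cre and the deletion of Gdown1 cannot be told apart in any of the pairs.

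Carboxylesterases are serine hydrolases, most of them held in the lumen of the endoplasmic reticulum, that cleave ester, amide and thioester bonds. In liver they are known for activating and clearing ester drugs and for hydrolysing stored neutral lipid, and their number is much larger in mouse than in human because of tandem duplication. Family 1 enzymes favour substrates with a large acyl group and a small alcohol group, and family 2 enzymes favour the reverse.

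All 10 genes lie on chromosome 8 (mm10), in 2 clusters. Family 1 stands on the minus strand, with Ces1c at 93099016-93131283, Ces1d at 93166072-93197804, Ces1e at 93201218-93229619, Ces1f at 93256236-93279736 and Ces1g at 93302369-93337209. Families 2 and 3 stand on the plus strand, with Ces2a at 104734003-104741634, Ces2c at 104847068-104854482, Ces2e at 104926260-104934672, Ces3a at 105048599-105058414 and Ces3b at 105083755-105093591. No exon base of the 10 genes was shared with another gene of the annotation in the files. The genes do resemble each other. Aligned transcripts were 74.5 to 95.4% identical within a family, over 14 pairs, and 64.0 to 67.6% identical between families, over 31 pairs. Ces3a and Ces3b were the most alike, and 30.9% of the 50-base words of the Ces3a transcript also occurred in that of Ces3b. For Ces2c 42.2% of such words, most of them in the pseudogene Ces2d-ps, for Ces2a 22.2%, most of them in Gm7208, and for Ces1c 17.0% were found in another gene. For Ces1d, Ces1e, Ces1f, Ces1g and Ces2e the share was 1.28 to 3.36%. Reads from shared stretches can be lost or split between such genes, so the levels of Ces3a, Ces3b, Ces2c, Ces2a and Ces1c are the less certain ones.

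Sequence upstream of the gene start was held in the RefSeq table (GRCm38.p6) for 7 of the 10 genes; Ces1d, Ces1f and Ces3a had no entry. The 150 bases before the start are shown for Ces2a and Ces2e, members of family 2 that were called in opposite directions in KO and DKO TAM, and for Ces3b, the gene with the largest fall. Capitals mark matches, on either strand, to the TATA box motif TATAAA, to the box motif CCAAT, to the HNF1 motif GTTAAT, to the C/EBP motif TTGCNNAA and to the word GGGCAAAG.
Ces2a, chr8:104733853-104734002, plus strand: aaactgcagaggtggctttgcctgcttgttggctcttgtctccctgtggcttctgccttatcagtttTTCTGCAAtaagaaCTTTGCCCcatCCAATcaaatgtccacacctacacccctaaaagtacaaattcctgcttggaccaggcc
Ces2e, chr8:104926110-104926259, plus strand: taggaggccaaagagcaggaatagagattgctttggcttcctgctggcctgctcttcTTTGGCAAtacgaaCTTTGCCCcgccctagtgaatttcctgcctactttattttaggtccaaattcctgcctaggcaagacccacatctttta
Ces3b, chr8:105083605-105083754, plus strand: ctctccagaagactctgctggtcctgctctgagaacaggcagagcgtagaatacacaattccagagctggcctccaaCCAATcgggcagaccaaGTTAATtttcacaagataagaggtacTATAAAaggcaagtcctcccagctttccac

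Over the 250 bases before the start, TTGCNNAA, the core of sites for C/EBP factors, occurred in Ces1c, Ces2a and Ces2e, 3 of 7 genes, against 9.56% of 32851 promoters. GGGCAAAG, a word chosen after the sequences had been seen, occurred in Ces2a and Ces2e, against 1.44% of promoters. In Ces2a the TTGCNNAA match nearest the start and the GGGCAAAG match lay 83 to 76 and 69 to 62 bases before it. In Ces2e the TTGCNNAA and GGGCAAAG matches lay 93 to 86 and 79 to 72 bases before the start, in the same order and on the same strand. The longest run of bases common to these windows of Ces2a and Ces2e was CAGAAGGACTTCAGATG. That run lies outside the 150 bases shown. TATAAA was found in Ces1g and Ces3b, 2 of 7 genes against 12.4% of promoters, and in Ces3b it lay 30 to 25 bases before the start. CCAAT was found in 5 of 7 genes, against 33.8%. GTTAAT, part of the recognition sequence of HNF1, was found in Ces3b alone of the 7, against 6.43%, and CAAAGTCCA, a form of the HNF4 site, in none, against 0.384%. These matches describe the letters in the windows only.

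Libraries held 4939408 to 8776369 counts, and all 10 genes passed the filter on low counts, as did 13693 genes in all. Levels are given as CPM, library-scaled counts after TMM normalization, and differences as log2 fold changes with SE from edgeR's quasi-likelihood F test over all 12 libraries. Adjusted p-values are Benjamini-Hochberg values over the 13693 genes, and a gene was called at an adjusted p under 0.05. Polr2m stood at 98.5 ± 2.55 CPM (SD, n = 2) in FF and 62.1 ± 3.76 in KO, at 95.9 ± 9.64 in p53KO and 59.0 ± 1.35 in DKO, and at 77.3 ± 1.99 in p53KO TAM and 60.3 ± 8.03 in DKO TAM. It was called lower in KO (adjusted p = 0.00243) and DKO (adjusted p = 0.000236) and not in DKO TAM (adjusted p = 0.0627), although the libraries of each pair did not overlap. Trp53 stood at 10.5 ± 3.65 CPM in FF, 19.8 ± 3.81 in KO, 2.93 ± 0.201 in p53KO, 8.26 ± 0.186 in DKO, 3.88 ± 0.127 in p53KO TAM and 9.49 ± 0.746 in DKO TAM. The labels do not say which part of p53 is missing, so these counts do not test the p53 labels. The titles of the FF, KO, p53KO TAM and DKO TAM libraries carry a different number for each library, whose meaning is not stated, and those of p53KO and DKO carry none beyond the replicate. Where libraries of a group are not from separate animals, p-values measure only the spread between these libraries.

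In FF liver the order by level was led by Ces1c and Ces3a. Per kilobase of counted exon, Ces1c, the esterase secreted into mouse plasma, stood at 1045 ± 25.1 CPM per kb (SD, n = 2) and Ces3a, an esterase of the hepatic endoplasmic reticulum, at 992 ± 42.9. Ces1f, related to triacylglycerol hydrolase, and Ces3b followed at 265 ± 19.5 and 257 ± 59.7 CPM per kb, with overlapping libraries. Ces1d, the triacylglycerol hydrolase that mobilises stored triglyceride, stood at 145 ± 14.5. Ces1g, which takes part in hepatic lipid handling, and Ces2a stood at 103 ± 5.06 and 87.8 ± 25.6 and overlapped. Ces1e, the egasyn that retains beta-glucuronidase in the endoplasmic reticulum, and Ces2e stood at 36.7 ± 2.46 and 35.5 ± 4.04 and overlapped, and Ces2c, a lipase for tri- and diglycerides, was lowest at 12.7 ± 3.22. In KO the order became Ces1c, Ces1f, Ces3a, Ces1d, Ces2e, Ces1g, Ces2a, Ces3b, Ces2c and Ces1e, with overlap between Ces1d and Ces2e and between Ces2a and Ces3b. In DKO Ces1c led at 373 ± 101 CPM per kb, Ces1d followed at 73.4 ± 23.0, and Ces3b was last at 0.949 ± 0.0521.

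**Figure D1:**
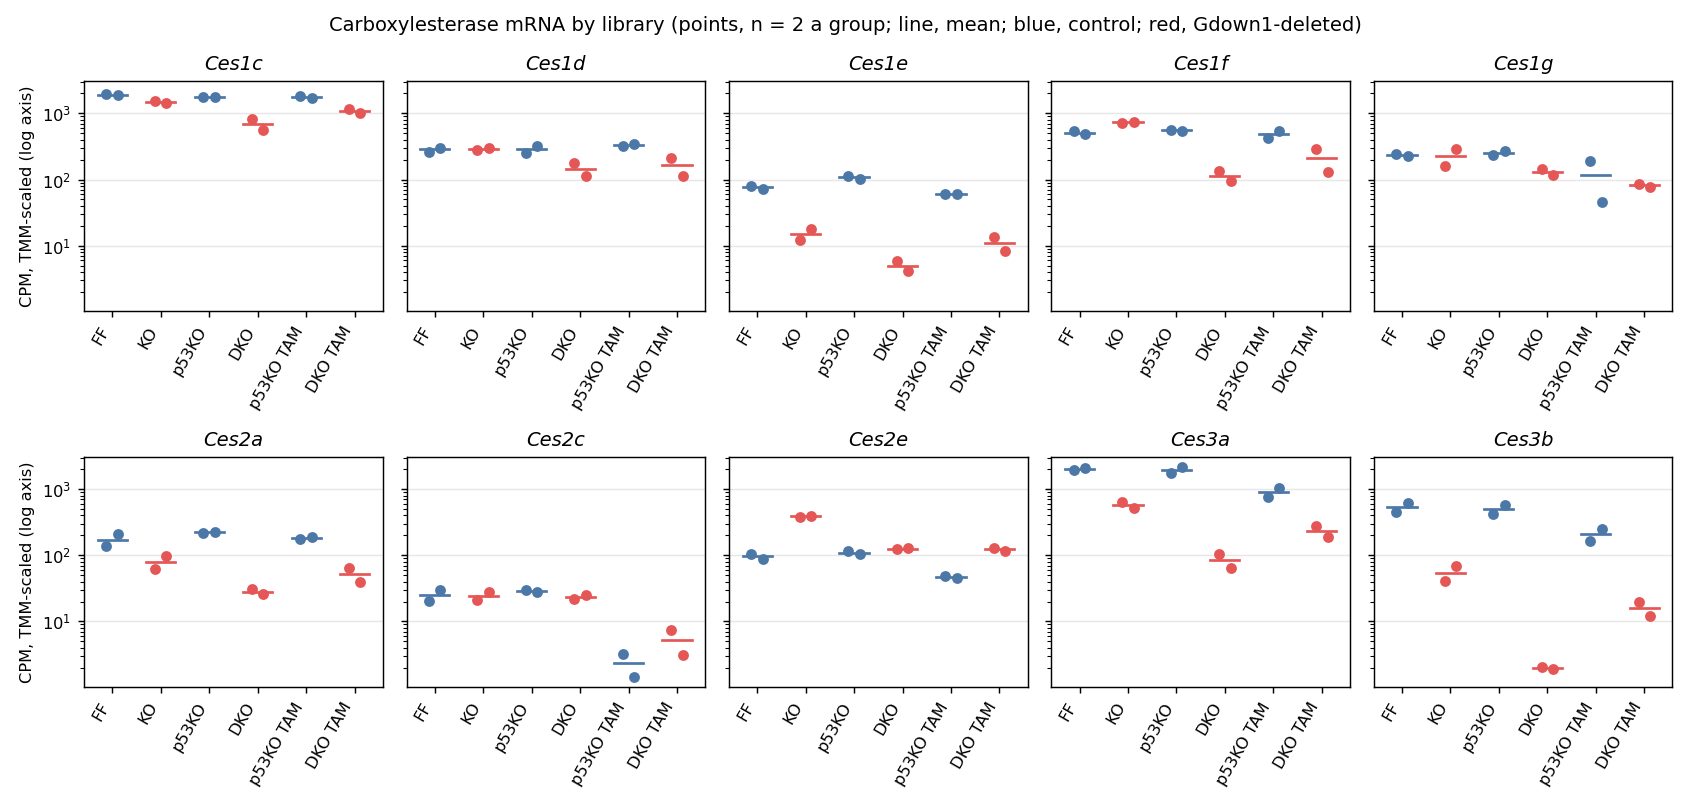
CPM after TMM scaling (log axis) of the 10 carboxylesterase genes in the 6 groups; points are libraries, n = 2 a group, lines are means, blue marks groups without Cre and red those with Cre. Ces3b falls from 500 CPM in p53KO to 1.96 in DKO, and Ces2e rises from 95.8 CPM in FF to 390 in KO.

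With p53 present, Ces3b, Ces1e, Ces3a and Ces2a were lower in KO than in FF and Ces2e was higher, the sharpest contrast within a family. Of the 10 genes 4 were called lower, where 7.88% of all tested genes were, and 1 was called higher, where 6.92% were. Their median log2 fold change was -0.22, against 0.02 over all tested genes. Ces3b stood at 444 and 619 CPM in the FF libraries and at 40.5 and 68.2 in the KO libraries, which is 9.81-fold lower (log2 fold change -3.29 ± 0.34, SE, adjusted p = 0.000358). Its neighbour Ces3a stood at 1971 and 2095 CPM in FF and at 629 and 510 in KO (log2 fold change -1.83 ± 0.25, adjusted p = 0.000366). For both family 3 genes every KO library lay below every FF library. Ces1e stood at 79.8 and 72.5 CPM in FF and at 12.2 and 17.7 in KO (log2 fold change -2.35 ± 0.21, adjusted p = 2.53e-06). Ces2a stood at 137 and 208 CPM in FF and at 62.0 and 97.8 in KO (log2 fold change -1.12 ± 0.29, adjusted p = 0.0296). The Ces2a libraries of each group lay far apart, and the adjusted p rose to 0.143 when FF replicate 2 was left out, to 0.124 when KO replicate 1 was, to 0.116 in a fit of these 4 libraries alone and to 0.0785 with no filter on low counts, all above the threshold.

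Ces2e went the other way: it stood at 104 and 88.1 CPM in FF and at 383 and 397 in KO (log2 fold change 2.03 ± 0.13, adjusted p = 7.08e-08), 4.08-fold higher. The KO libraries of Ces2e lay close together and well above FF. Ces1f stood at 534 and 482 CPM in FF and at 724 and 742 in KO without passing the test (log2 fold change 0.53 ± 0.32, adjusted p = 0.316), and it passed in a fit of these 4 libraries alone (adjusted p = 0.0230). Ces1c stood at 1954 and 1889 CPM in FF and at 1552 and 1444 in KO (log2 fold change -0.36 ± 0.17, adjusted p = 0.166). Ces1d, Ces1g and Ces2c had log2 fold changes of 0.02 ± 0.29, -0.08 ± 0.59 and -0.07 ± 0.29, and their FF and KO libraries overlapped.

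Without p53 the falls reached most of the genes. In DKO against p53KO 7 of 10 genes were called lower and 0 higher, where 25.7% of all tested genes were lower and 25.7% higher, and the median of the 10 was -1.83 against 0.01 over all tested genes. Ces3b stood at 428 and 572 CPM in the p53KO libraries and at 2.03 and 1.88 in the DKO libraries, from 24 and 22 counts (log2 fold change -7.98 ± 0.45, adjusted p = 9.12e-07), 253-fold lower. Ces3a stood at 1724 and 2143 CPM in p53KO and at 104 and 64.7 in DKO (log2 fold change -4.51 ± 0.28, adjusted p = 4.90e-08). The DKO libraries of both family 3 genes lay far below the p53KO libraries and did not overlap them. Ces1e stood at 113 and 102 CPM in p53KO and at 5.85 and 4.19 in DKO (log2 fold change -4.42 ± 0.22, adjusted p = 4.94e-10). Ces2a stood at 216 and 226 CPM in p53KO and at 30.6 and 25.6 in DKO (log2 fold change -2.98 ± 0.30, adjusted p = 3.03e-05).

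The remaining family 1 genes fell less. Ces1f stood at 565 and 549 CPM in p53KO and at 135 and 95.2 in DKO (log2 fold change -2.28 ± 0.33, adjusted p = 0.000382). Ces1c stood at 1785 and 1795 CPM in p53KO and at 817 and 556 in DKO (log2 fold change -1.38 ± 0.17, adjusted p = 4.48e-06). For Ces1c and Ces1f the groups did not overlap, and the DKO libraries differed more from each other than the p53KO libraries did. Ces1d stood at 255 and 320 CPM in p53KO and at 176 and 112 in DKO (log2 fold change -0.99 ± 0.29, adjusted p = 0.0180). That call was lost without p53KO replicate 2 (adjusted p = 0.110), without DKO replicate 3 (0.0929), with no filter (0.0515) and with library totals alone (log2 fold change -0.23, adjusted p = 0.496). Ces1g stood at 234 and 273 CPM in p53KO and at 146 and 119 in DKO and did not pass (log2 fold change -0.94 ± 0.60, adjusted p = 0.235), but passed in a fit of these 4 libraries alone (-0.91, adjusted p = 0.000309). Of the family 2 genes that were not called, Ces2c stood at 29.4 and 28.1 CPM in p53KO and 21.6 and 24.8 in DKO (log2 fold change -0.31 ± 0.27, adjusted p = 0.367). Ces2e stood at 114 and 103 CPM in p53KO and at 125 and 127 in DKO (log2 fold change 0.21 ± 0.12, adjusted p = 0.168), and it was called higher with upper quartile scaling (0.43, adjusted p = 0.00887) and with library totals alone (0.98, adjusted p = 5.81e-06).

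At 24 h after tamoxifen, 7 of 10 genes were called lower in DKO TAM than in p53KO TAM, where 10.1% of all tested genes were, and 1 was called higher, where 8.61% were. The median of the 10 was -1.10, against 0.01 over all tested genes. Ces3b stood at 167 and 250 CPM in p53KO TAM and at 19.4 and 12.3 in DKO TAM (log2 fold change -3.70 ± 0.36, adjusted p = 0.000198). Ces3a stood at 764 and 1036 CPM in p53KO TAM and at 274 and 189 in DKO TAM (log2 fold change -1.96 ± 0.25, adjusted p = 0.000198). Ces1e stood at 60.6 and 61.2 CPM in p53KO TAM and at 13.4 and 8.26 in DKO TAM (log2 fold change -2.47 ± 0.21, adjusted p = 1.13e-06). The same 3 genes thus had the largest falls in each of the comparisons, with no overlap of libraries in any of them. Ces2a stood at 179 and 187 CPM in p53KO TAM and at 65.1 and 39.6 in DKO TAM (log2 fold change -1.80 ± 0.29, adjusted p = 0.00282). Ces2e stood at 48.7 and 44.9 CPM in p53KO TAM and at 131 and 115 in DKO TAM (log2 fold change 1.39 ± 0.13, adjusted p = 2.17e-06). The opposite movement of Ces2a and Ces2e seen in KO was thus present in this pair as well.

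Ces1c stood at 1842 and 1682 CPM in p53KO TAM and at 1148 and 1029 in DKO TAM (log2 fold change -0.70 ± 0.17, adjusted p = 0.00833). Ces1d stood at 319 and 342 CPM in p53KO TAM and at 214 and 113 in DKO TAM (log2 fold change -1.01 ± 0.29, adjusted p = 0.0416). Ces1f stood at 425 and 538 CPM in p53KO TAM and at 288 and 131 in DKO TAM (log2 fold change -1.20 ± 0.32, adjusted p = 0.0317). These 3 calls were the weakest of the pair. That of Ces1c was lost without p53KO TAM replicate 1 (adjusted p = 0.0791), without DKO TAM replicate 2 (0.0621) and with library totals alone (0.109). That of Ces1d was lost without p53KO TAM replicate 1 (0.113), p53KO TAM replicate 2 (0.138) or DKO TAM replicate 2 (0.0988), and that of Ces1f without p53KO TAM replicate 1 (0.0607) or replicate 2 (0.132). Both were also lost with library totals alone (Ces1d 0.107, Ces1f 0.0726), with no filter (0.108 and 0.0901) and in a fit of these 4 libraries alone (0.106 and 0.237).

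Ces1g and Ces2c were not called in DKO TAM. Ces1g stood at 190 and 45.7 CPM in p53KO TAM and at 85.7 and 78.5 in DKO TAM (log2 fold change -0.54 ± 0.60, adjusted p = 0.605). The control libraries of Ces1g lay on either side of the DKO TAM libraries, so that the log2 fold change was -1.21 (adjusted p = 0.0161) without p53KO TAM replicate 2 and 0.84 (adjusted p = 0.110) without p53KO TAM replicate 1. Ces2c stood at 3.21 and 1.46 CPM in p53KO TAM and at 7.40 and 3.13 in DKO TAM, with overlap (log2 fold change 1.12 ± 0.46, adjusted p = 0.109). It was called higher without DKO TAM replicate 2 (1.58, adjusted p = 0.0136) and with library totals alone (1.47, adjusted p = 0.0179).

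**Figure D2:**
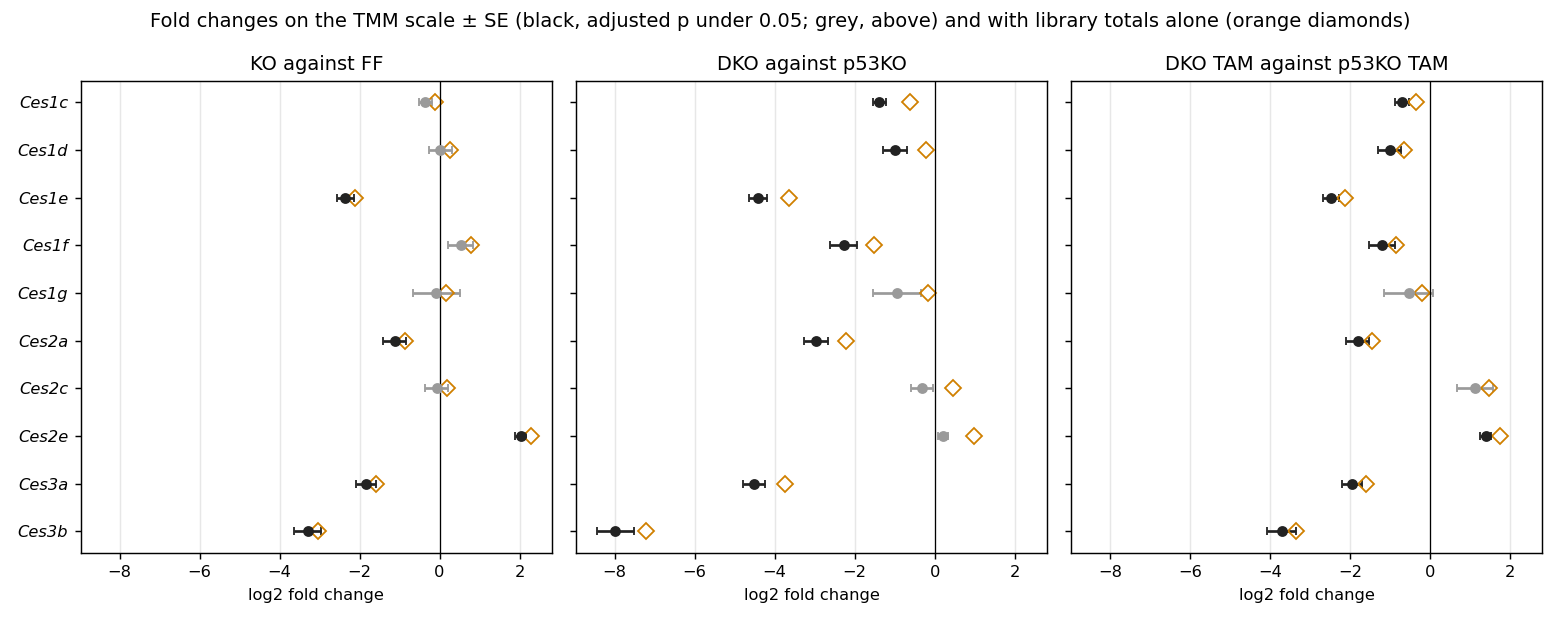
log2 fold changes of the 10 genes in the 3 comparisons of mice with and without Cre; circles are TMM-scaled values with SE (black, adjusted p under 0.05; grey, above) and orange diamonds are values with library totals alone. Ces3b lies farthest to the left in each comparison (-3.29, -7.98 and -3.70), and Ces2e lies to the right of 0 (2.03, 0.21 and 1.39).

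The sizes of these changes depend on how libraries are scaled, since RNA composition differed between the groups. With library totals alone the median log2 fold change of all tested genes moved to 0.28 in KO against FF, to 0.78 in DKO against p53KO and to 0.36 in DKO TAM against p53KO TAM. The medians of the 10 genes under that scaling were 0.03, -1.06 and -0.75. The split of calls over all tested genes moved with it. In KO against FF 1079 genes were lower and 947 higher with TMM, and 550 and 2744 with library totals alone. In DKO against p53KO the split was 3525 lower and 3516 higher with TMM and 959 and 8823 with library totals alone. Upper quartile scaling gave 2435 lower and 4662 higher in that comparison. In DKO TAM against p53KO TAM it was 1380 and 1179 with TMM and 586 and 4346 with library totals alone. Ces1g and Ces2c in KO and Ces2c in DKO, all near 0 and not called, changed sign with library totals alone (0.17, 0.19 and 0.46).

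Whole liver holds several cell types, and in such samples fewer hepatocytes and less of an mRNA in each hepatocyte cannot be told apart. Of 10 hepatocyte markers 9 were in the files, and none of these was at 0. Their summed level was 116344 to 119573 CPM in FF and 67260 to 78099 in KO, 130168 to 132574 in p53KO and 38454 to 40781 in DKO, and 125987 to 126573 in p53KO TAM and 58994 to 61613 in DKO TAM. In the 3 pairs 6, 9 and 4 of the 9 markers were called lower, with medians of -0.54, -1.65 and -0.47. A summed level is weighted towards the most abundant genes. The albumin gene Alb had log2 fold changes of -1.01, -2.04 and -2.09 in these pairs, each a larger fall than the marker median. Its mean level was 17060 CPM in DKO TAM against 72668 in p53KO TAM. The sums therefore do not show an equal fall of all hepatocyte markers. In DKO the summed macrophage markers stood at 1101 to 1170 CPM against 496 to 531 in p53KO, those of stellate cells and fibroblasts at 1467 to 1532 against 381 to 398, those of cholangiocytes at 267 to 299 against 66.3 to 67.8, and 5 proliferation genes at 1081 to 1088 against 60.3 to 68.3. In DKO 8 of 9 macrophage, 10 of 10 stellate and fibroblast, 5 of 6 cholangiocyte and 5 of 5 proliferation genes tested were called higher. Trem2, a macrophage marker, was at 0 in FF and p53KO. In DKO TAM 1 macrophage, 1 cholangiocyte and 0 stellate and fibroblast markers were called higher, and in KO 2, 0 and 1. There was 1 stellate and fibroblast marker called lower in DKO TAM. Of the 5 proliferation genes 4 were called higher in KO, where they summed to 143 to 146 CPM against 45.1 to 69.6 in FF, and 3 in DKO TAM, where they summed to 110 to 149 CPM against 58.0 to 59.7 in p53KO TAM. Of 9 endothelial markers 4 were lower and 2 higher in DKO, 5 lower in DKO TAM and 1 higher in KO. Among all tested genes 7.88% were lower and 6.92% higher in KO, 25.7% and 25.7% in DKO, and 10.1% and 8.61% in DKO TAM. The part of these markers in the carboxylesterase changes was not tested.

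The pairs were then compared with each other by testing the difference between their log2 fold changes. The effect in DKO was below that in KO for 7 of 10 genes, all towards lower, where 22.7% of all tested genes differed in either direction. For Ces3b the difference was -4.69 ± 0.54 (adjusted p = 0.000560), and for Ces3a it was -2.68 ± 0.35 (adjusted p = 0.000247). For Ces1f, which stood higher in the KO libraries than in FF and fell in DKO, it was -2.81 ± 0.46 (adjusted p = 0.00287). Ces1e (-2.06 ± 0.30), Ces2a (-1.86 ± 0.40), Ces2e (-1.82 ± 0.18) and Ces1c (-1.02 ± 0.24) also differed, whereas Ces1d (-1.01 ± 0.41, adjusted p = 0.110), Ces1g (-0.86 ± 0.84) and Ces2c (-0.24 ± 0.40) did not pass. Ces1d passed without DKO replicate 2 (-1.37, adjusted p = 0.0380), with DESeq2 (0.0287) and in a fit of the libraries compared alone (0.0194), and Ces1c no longer passed with library totals alone (-0.51, adjusted p = 0.104). Mice of the DKO pair were also 8 weeks old and those of the KO pair 7. Whether reads of these pairs were counted in the same way is not known. The p53 state, age and any difference in counting cannot be told apart here.

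The effect in DKO TAM was above that in DKO, that is, a smaller fall or a larger rise, for 5 of 10 genes, where 27.6% of all tested genes differed in either direction. These genes were Ces3b (4.28 ± 0.55, adjusted p = 0.000705), Ces3a (2.56 ± 0.35), Ces1e (1.94 ± 0.30), Ces2e (1.18 ± 0.18) and Ces1c (0.69 ± 0.24, adjusted p = 0.0386). Of these, Ces3b, Ces3a, Ces1e and Ces2e were also called lower in the control group p53KO TAM than in p53KO. Ces2e stood at 126 CPM in DKO and 123 in DKO TAM, but at 109 in p53KO and 46.8 in p53KO TAM. The pairs differ in Cre (Alb-Cre or Alb-CreERT2), in tamoxifen and in time since deletion, and possibly in age. These cannot be told apart. Polr2m had log2 fold changes of -0.70 in DKO and -0.36 in DKO TAM, the latter not called. The call of Ces1c was lost on leaving out p53KO replicate 1 (adjusted p = 0.0731), p53KO replicate 2 (0.0691), DKO replicate 3 (0.198), p53KO TAM replicate 1 (0.0755), p53KO TAM replicate 2 (0.125) or DKO TAM replicate 1 (0.0968). It was also lost with upper quartile scaling (0.125), with library totals alone (0.405) and with the libraries compared alone (0.0650). Without DKO TAM replicate 2 the count rose to 8, with Ces1f (1.54, adjusted p = 0.000408), Ces2a (1.49, adjusted p = 0.0107) and Ces2c (1.89, adjusted p = 0.00452) added. Without p53KO TAM replicate 1 the difference of Ces1g passed (1.79, adjusted p = 0.00815).

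Among the control groups, none of the 10 genes was called between p53KO and FF, which differ in p53 and in age (8 against 7 weeks), and in whether their files name the counting program. These cannot be told apart. In p53KO against FF 0 of 10 were called by edgeR, DESeq2 or limma-voom, where 0.862% of all tested genes were called by edgeR, and 1, Ces1e, had an unadjusted p under 0.05 in edgeR. Ces1e stood at 113 and 102 CPM in p53KO against 79.8 and 72.5 in FF (log2 fold change 0.50 ± 0.18, adjusted p = 0.261). Between p53KO TAM and p53KO, 5 of 10 genes were called, all lower, where 15.8% of all tested genes were called in either direction. Ces2c had the largest difference, from 29.4 and 28.1 CPM in p53KO to 3.21 and 1.46 in p53KO TAM (log2 fold change -3.54 ± 0.39, adjusted p = 8.43e-05). This gene, which did not pass in any of the 3 pairs with and without Cre, was thus 11.6-fold lower in the control livers sampled after tamoxifen. Ces2e (-1.22 ± 0.13, adjusted p = 1.37e-05), Ces3b (-1.27 ± 0.31, adjusted p = 0.0260), Ces3a (-1.10 ± 0.24, adjusted p = 0.00883) and Ces1e (-0.82 ± 0.18, adjusted p = 0.00613) were also lower. Of these, Ces1e was lost without p53KO replicate 1 (adjusted p = 0.0552) or p53KO TAM replicate 1 (0.0619), Ces3a without p53KO replicate 2 (0.0671) or p53KO TAM replicate 1 (0.0862), and Ces3b without p53KO replicate 1 (0.0605), p53KO replicate 2 (0.130) or p53KO TAM replicate 1 (0.138) and with no filter on low counts (0.0701). Ces1g was called lower without p53KO TAM replicate 1 (-2.47, adjusted p = 0.00104). The age of the tamoxifen-treated mice is not given, so age and tamoxifen cannot be told apart here.

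The share of Ces1c in carboxylesterase mRNA was higher in each group with Cre than in its control, and in KO that of Ces1f rose by more. Together the 10 genes took 0.515 ± 0.00122% of all counts in FF (SD, n = 2) and 0.404 ± 0.0138% in KO, 0.479 ± 0.0399% in p53KO and 0.189 ± 0.0424% in DKO, and 0.351 ± 0.00629% in p53KO TAM against 0.217 ± 0.0413% in DKO TAM. Of their counts per kilobase, Ces3a held 33.3 ± 0.435% in FF and 14.3 ± 2.11% in KO, 32.1 ± 2.48% in p53KO and 5.98 ± 0.596% in DKO, and 20.8 ± 3.77% in p53KO TAM against 10.99 ± 0.831% in DKO TAM. Ces1c held 35.1 ± 1.90% in FF and 41.8 ± 2.15% in KO, 33.4 ± 2.42% in p53KO and 54.5 ± 1.89% in DKO, and 45.5 ± 4.37% in p53KO TAM against 58.5 ± 6.47% in DKO TAM. Ces1c had the largest mean share in every group, although the p53KO ranges of Ces1c and Ces3a overlapped and Ces3a held more than Ces1c in p53KO replicate 2. The level of Ces1c itself fell in DKO and DKO TAM. Ces2e held 1.19 ± 0.171% in FF and 7.41 ± 0.188% in KO, 1.38 ± 0.201% in p53KO and 7.05 ± 1.75% in DKO, and 0.822 ± 0.0732% in p53KO TAM against 4.51 ± 0.449% in DKO TAM. Ces1f held 8.91 ± 0.923% in FF and 19.6 ± 0.341% in KO, and 9.98 ± 0.967% in p53KO and 8.79 ± 0.0570% in DKO.

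**Figure D3:**
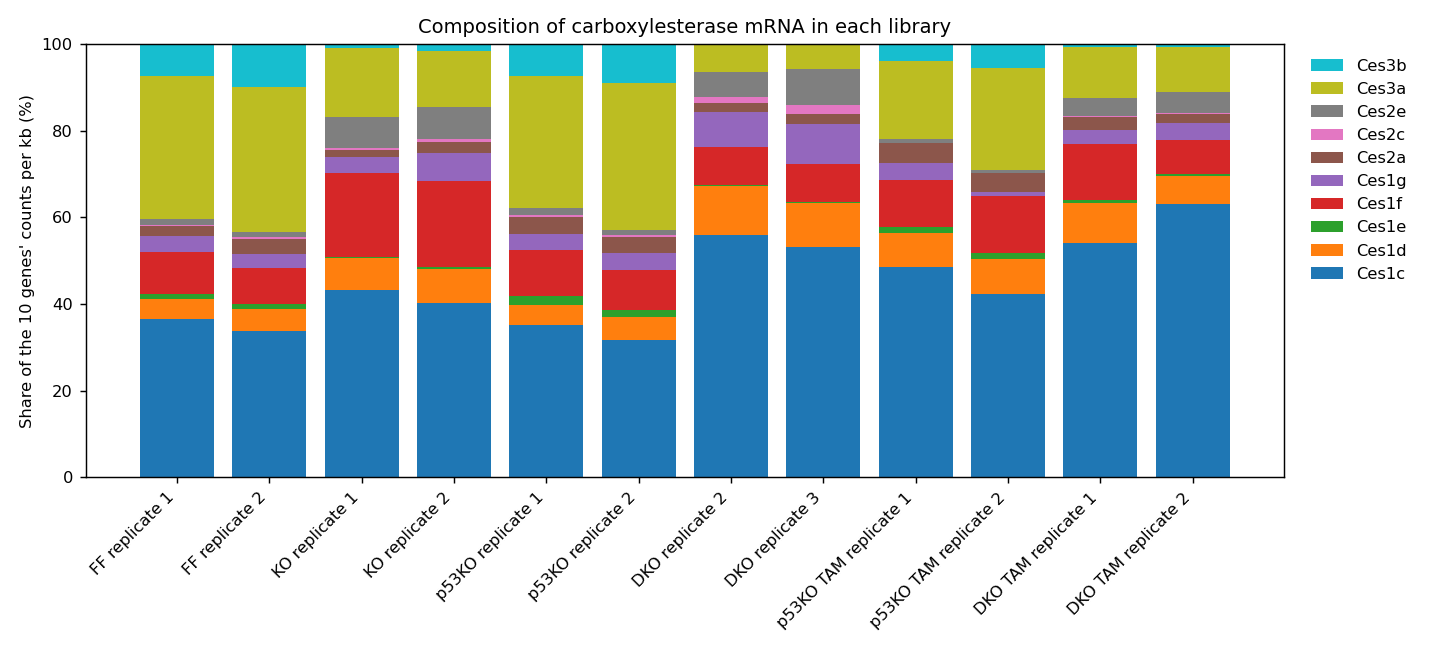
Share of each gene in the summed counts per kilobase of the 10 carboxylesterase genes (%, stacked to 100) in the 12 libraries. The band of Ces3a shrinks from 33.3% in FF to 14.3% in KO and from 32.1% in p53KO to 5.98% in DKO, and that of Ces2e grows from 1.19 to 7.41% and from 1.38 to 7.05%.

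Ratios within a library do not depend on scaling, and those below were picked after the values had been seen. Per kilobase, Ces2e stood at 0.550 and 0.308 times Ces2a in the FF libraries and at 4.49 and 2.95 times in KO. It stood at 0.383 and 0.332 times in p53KO and at 2.97 and 3.61 times in DKO, and at 0.198 and 0.174 times in p53KO TAM and 1.46 and 2.12 times in DKO TAM. Ces2a exceeded Ces2e in all 6 libraries without Cre, and Ces2e exceeded Ces2a in all 6 libraries with Cre. Ces3a stood at 4.47 and 3.41 times Ces3b in FF and at 15.7 and 7.54 times in KO, at 4.06 and 3.78 times in p53KO and at 51.7 and 34.6 times in DKO, and at 4.62 and 4.18 times in p53KO TAM and 14.3 and 15.5 times in DKO TAM. The ratio of this adjacent, near-identical pair was higher in every library with Cre than in any without.

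The other carboxylesterase genes of the clusters were mostly expressed at low levels. Of the 9 with a Ces symbol, 5 passed the filter together with the 10 described: Ces1a, Ces1b, Ces2b, Ces2g and Ces4a. Ces1b, the gene next to Ces1c, stood at 106 ± 19.1 CPM in p53KO and 11.2 ± 1.37 in DKO (log2 fold change -3.24 ± 0.46, adjusted p = 0.000828) and was also called lower in DKO TAM (-2.30 ± 0.43), with -0.95 ± 0.42 (adjusted p = 0.193) in KO. Ces2g was called higher in KO (0.74 ± 0.13, adjusted p = 0.00111) and in DKO TAM (0.54 ± 0.13, adjusted p = 0.00915), with 0.23 ± 0.13 in DKO (adjusted p = 0.148). Ces2g thus shared with Ces2e the direction of its calls. Ces1a, at 0.600 ± 0.365 CPM in p53KO and 2.98 ± 0.221 in DKO, was called higher in DKO (2.34 ± 0.59) and DKO TAM (2.25 ± 0.49). Ces4a, at 8.21 CPM in FF and 0.542 in KO, was called lower in KO (-3.88 ± 0.46) and DKO (-2.55 ± 0.39), with 0.60 ± 0.40 in DKO TAM (adjusted p = 0.335). Its effect in DKO TAM lay above that in DKO (difference 3.14 ± 0.56, adjusted p = 0.000692). Ces4a was also called lower in the control group p53KO TAM than in p53KO (-1.47 ± 0.40, adjusted p = 0.0182). Its counts summed to 6 in KO, 19 in DKO and 20 in p53KO TAM. Ces2b held at most 37 counts in a group, and Ces5a, Ces2d-ps, Ces2f and Ces2h did not pass the filter.

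Genes flanking the clusters were examined for changes of the same kind. The first cluster spans 515 kb and holds 8 Ces genes, the other spans 416 kb and holds 11. Of the 10 nearest tested genes around the first cluster, 0 were called in KO and 0 in DKO TAM, and in DKO 1 was lower and 2 were higher, the latter being Mmp2 and Lpcat2. Around the other cluster 1 was higher in KO and in DKO TAM, Cdh16, which had 0 counts in FF and p53KO TAM, and in DKO 3 were lower and 2 higher. Median log2 fold changes of the flanking genes were -0.18, -0.04 and -0.01 at the first cluster and 0.03, -0.11 and 0.31 at the other, for KO, DKO and DKO TAM. Those of all tested genes were 0.02, 0.01 and 0.01. In KO 7.88% of all tested genes were lower and 6.92% higher, in DKO 25.7% and 25.7%, and in DKO TAM 10.1% and 8.61%.

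**Figure D4:**
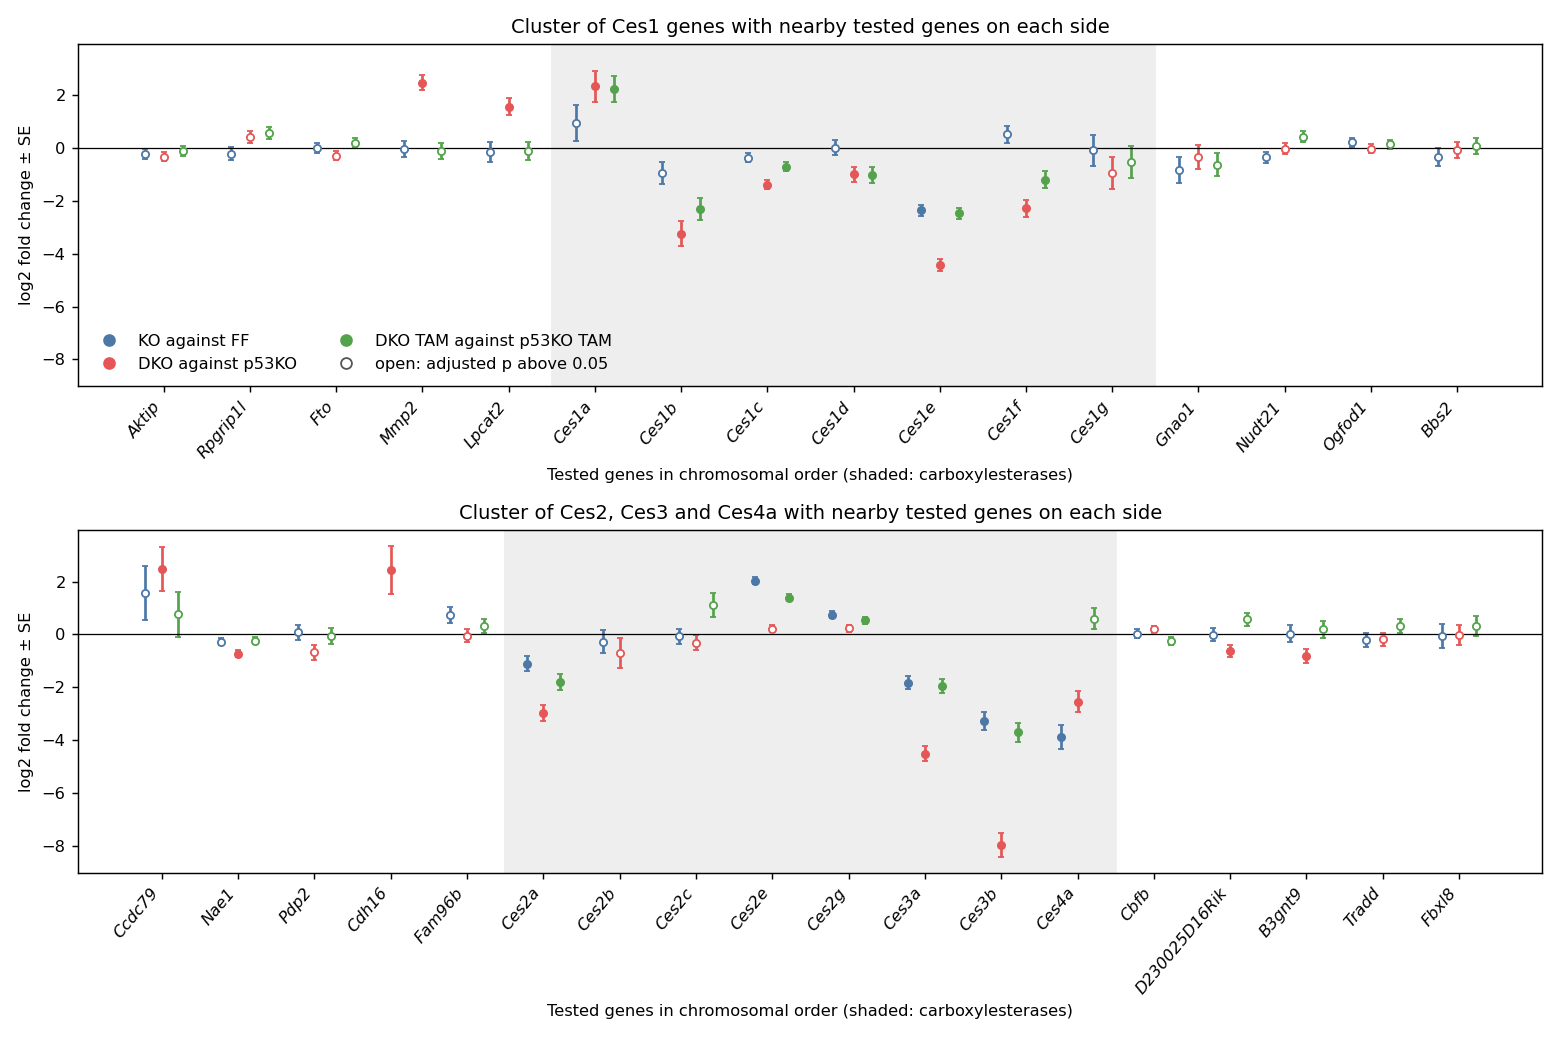
log2 fold change with SE of the tested carboxylesterase genes (shaded) and of nearby tested genes on each side, in chromosomal order; filled points have an adjusted p under 0.05, and points of a comparison in which a group had 0 counts (Ces2b and Cdh16) are left out. Falls below -2 occur inside the shaded blocks, down to -7.98 for Ces3b, and no flanking gene shown falls below -1.

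Genes of related function moved in both directions. Of 24 genes of triglyceride hydrolysis and lipoprotein assembly, 5 were called lower and 3 higher in KO, 10 lower and 5 higher in DKO, and 6 lower and 4 higher in DKO TAM, with medians of 0.03, -0.21 and -0.05. Over all tested genes 7.88% were lower and 6.92% higher in KO, 25.7% and 25.7% in DKO, and 10.1% and 8.61% in DKO TAM. In DKO Cideb, which takes part in lipidation of very low density lipoprotein, had a log2 fold change of -1.90 ± 0.16, Dgat2, which makes triglyceride, -1.60 ± 0.13, and Aadac, an esterase of the endoplasmic reticulum, -1.50 ± 0.13. Of 17 other ester and epoxide hydrolases, Aadac again among them, 2 were called lower and 5 higher in KO, 10 lower and 3 higher in DKO, and 3 lower and 3 higher in DKO TAM. The acyl-CoA thioesterases Acot1 and Acot2 were higher in all 3 pairs, by 1.92 ± 0.33, 2.79 ± 0.28 and 2.26 ± 0.28 for Acot1 and by 2.19 ± 0.37, 3.69 ± 0.26 and 2.98 ± 0.25 for Acot2. Pon1, the paraoxonase of plasma, was lower in DKO (-1.80 ± 0.17).

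Of 21 transcriptional regulators listed for these genes or for hepatocytes, 8 were called lower and 1 higher in KO, 15 lower and 1 higher in DKO, and 2 lower and 1 higher in DKO TAM, with medians of -0.35, -0.80 and -0.19. The shares of all tested genes were 7.88% lower and 6.92% higher, 25.7% and 25.7%, and 10.1% and 8.61% in these pairs. Nfe2l2, which encodes the oxidative stress factor Nrf2, was higher in all 3 pairs (1.14 ± 0.17, 0.77 ± 0.17 and 0.56 ± 0.17). Srebf1, a driver of lipogenic genes, was lower in all 3 (-1.50 ± 0.26, -1.56 ± 0.26 and -1.63 ± 0.25). Cebpa, a hepatocyte transcription factor of the C/EBP family, was lower in KO (-0.55 ± 0.17) and DKO (-1.88 ± 0.17), with -0.37 ± 0.17 in DKO TAM (adjusted p = 0.146). Nr1i3, the xenobiotic receptor CAR, was lower in KO (-0.89 ± 0.17) and DKO (-1.77 ± 0.17), with -0.29 ± 0.17 in DKO TAM (adjusted p = 0.241). Nr1h4, the bile acid receptor FXR, and Hnf4a were lower in DKO alone of the 3 (-1.15 ± 0.14 and -0.66 ± 0.18), and Nr1i2, the xenobiotic receptor PXR, was not called in any of the pairs. Whether these regulators bear on the carboxylesterase genes was not tested.

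Across the 12 libraries the mean log profile of the 10 genes was most like that of Cyp4f15 (Pearson r = 0.992) among the 10163 genes whose mean reached 5 CPM, followed by Ugt2b36 (0.986), Qdpr (0.985), Dnase2b (0.985), Uox (0.985) and Galm (0.984). For single genes the closest profile was Cyp4f13 for Ces3a (0.993), Dym for Ces3b (0.992), Fggy for Ces2a (0.994), Sdr9c7 for Ces1e (0.987), Pm20d1 for Ces1c (0.989), Glud1 for Ces1f (0.981) and Rhbg for Ces2e (0.968). For Ces2c it was Fgfr3 (0.955), for Ces1g Bnip1 (0.949) and for Ces1d Acy1 (0.943). The libraries share groups and scaling, so these values describe likeness of pattern only.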

How the data were processed

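Total RNA of whole liver, purified with TRIZOL and a Zymo column, was made into libraries with a SMARTer Stranded Total RNA kit, per the labels' protocols. The authors deposited a raw count of reads for each gene in every library. Per the submitters' processing notes, CASAVA 1.82, HISAT2 and featureCounts were used with mm10 (GRCm38). Per the file headers, 4 of the 12 files, those of FF and KO, were counted with featureCounts 1.6.4 over exons by gene, with no option for strand, pairs or multiple mapping; the other 8 carry no program line, so the counting of these 2 sets is not known to be the same. Libraries were grouped by title and description; DKO replicates are named 2 and 3 as in their titles.

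The count tables were tested with edgeR 4.0.16 under R 4.3.3 (filterByExpr with a minimum count of 10, TMM, robust quasi-likelihood fit of 6 group means over 12 libraries, F test, Benjamini-Hochberg adjustment), and the SE was derived from the fold change and F (their ratio, with F under the root). The fit has 6 residual degrees of freedom and a common biological coefficient of variation of 0.124. DESeq2 1.42.0, limma 3.58.1 (voom), other scalings and filters, a replicate block, subsets of libraries and a threshold of 0.01 served as alternatives, and the fit was tested on simulated data. CPM per kb divides by the exon length in the files. Transcript likeness was computed on GENCODE transcripts of GRCm38 with Biopython 1.88. Named genes were the 10 described, all other Ces genes, Polr2m, Trp53, and per list up to 4 genes with the smallest p in DKO against p53KO; regulators were open to naming without that limit. Some genes that this rule would name are not reported here. The 10 genes and the lists were chosen with earlier results of these data known.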

Additional observations from a re-analysis of the deposited data

Results flagged for a closer look

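The difference between the log2 fold changes of 2 pairs with and without Cre was itself tested with edgeR's quasi-likelihood test. It passed for 7 carboxylesterase genes, and these values are given for a closer look. The log2 effect in DKO minus that in KO was -4.69 for Ces3b, -2.81 for Ces1f, -2.68 for Ces3a, -2.06 for Ces1e, -1.86 for Ces2a, -1.82 for Ces2e and -1.02 for Ces1c. The sign of the effect itself was opposite in these pairs for Ces1f (0.53 in KO, not called, and -2.28 in DKO). The log2 effect in DKO TAM minus that in DKO was 4.28 for Ces3b, 2.56 for Ces3a, 1.94 for Ces1e, 1.18 for Ces2e and 0.69 for Ces1c. The DKO libraries enter both differences, so these are not independent of each other. In the DKO minus KO difference, p53, age and any difference in counting cannot be told apart. In the DKO TAM minus DKO difference, the form of Cre, tamoxifen, time since deletion and possibly age cannot be told apart.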

How the results depend on the processing

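The labels do not say that replicate numbers pair libraries across groups, and libraries with the same number in their descriptions, where DKO replicates 2 and 3 are numbered 1 and 2, had deviations correlated at -0.0945 to 0.158. With the replicate block, 5, 7 and 8 genes were called in the 3 pairs with and without Cre, as without it. Over all 13693 tested genes the block gave 1052 lower and 939 higher in KO, 3499 and 3486 in DKO, and 1334 and 1128 in DKO TAM. Of the 7 counts, that of DKO TAM against p53KO TAM (8) ranged from 5 to 8 on leaving out 1 library, the lowest without p53KO TAM replicate 1. The count for the effect in DKO TAM minus that in DKO (5) was 8 with DESeq2 and 4 to 8 on leaving out 1 library, and that for p53KO TAM against p53KO (5) was 3 to 5. Over all 13693 tested genes DESeq2 called 1386 towards lower and 1466 towards higher for the DKO TAM minus DKO difference. On leaving out 1 library, fewer of all tested genes were called in each of these comparisons. Where a group is left with 1 library, that library is assumed to vary like the others.

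With library totals alone, log2 values that did not pass changed sign for Ces1g (0.17) and Ces2c (0.19) in KO against FF, Ces2c in DKO against p53KO (0.46) and in the DKO minus KO difference (0.27), Ces1g in the DKO TAM minus DKO difference (-0.021), Ces1d in p53KO against FF (-0.066) and Ces1c in p53KO TAM against p53KO (0.030). So did Ces1c in the last of these (0.077) and Ces1d in p53KO against FF (-0.049) with upper quartile scaling, Ces1d in p53KO against FF (-0.0017) with the libraries compared alone, and Ces1d in the DKO TAM minus DKO difference (0.0052) with no filter. Leaving out 1 library gave ranges across 0 for Ces1d (-0.082 to 0.12), Ces1g (-0.57 to 0.29) and Ces2c (-0.29 to 0.23) in KO against FF, and for Ces1g in DKO TAM against p53KO TAM (-1.21 to 0.84). It did so for Ces2c in the DKO minus KO difference (-0.54 to 0.019) and for Ces1d (-0.55 to 0.37) and Ces1g (-0.27 to 1.79) in the DKO TAM minus DKO difference. In p53KO against FF it did so for Ces1d (-0.16 to 0.17), Ces1g (-0.0095 to 0.21), Ces2c (-0.039 to 0.48), Ces3a (-0.24 to 0.076) and Ces3b (-0.31 to 0.17), and in p53KO TAM against p53KO for Ces1c (-0.090 to 0.041). The cause was not tested.

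As a share of counts without the 50 most abundant other genes, the 10 genes took 0.740% in FF, 0.537% in KO, 0.696% in p53KO, 0.231% in DKO, 0.535% in p53KO TAM and 0.292% in DKO TAM. Without haemoglobin and ribosomal RNA genes these shares were 0.518, 0.409, 0.485, 0.192, 0.353 and 0.220% in the same order; the files hold no mitochondrial genes. Counts limit Ces3b in DKO (24 and 22 reads) and Ces2c after tamoxifen (29 and 96 reads in the 2 groups); with 2 libraries a group, small differences could not be detected.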

Other observations

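Gusb, which encodes the beta-glucuronidase that the Ces1e protein retains in the endoplasmic reticulum, was looked at after its values had been seen. It was higher in all 3 pairs in which Ces1e was lower. It stood at 27.4 CPM in FF and 55.3 in KO (log2 fold change 1.005 ± 0.15, adjusted p = 0.000275), at 24.5 in p53KO and 50.02 in DKO (1.03 ± 0.15, adjusted p = 2.39e-05), and at 29.7 in p53KO TAM and 49.3 in DKO TAM (0.73 ± 0.15, adjusted p = 0.00233). Bche, the secreted butyrylcholinesterase and, like Ces1c, an esterase of plasma, was higher in KO (569 against 328 CPM in FF, log2 fold change 0.79 ± 0.16, adjusted p = 0.00337), with -0.06 ± 0.16 in DKO and 0.19 ± 0.16 in DKO TAM, neither of them called. It too was named after its values had been seen.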
